A study of Mus musculus with 28 samples.

Results

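The 30 genes described here make, sense, move and export cholesterol in DC2 cells, an immortalized mouse line from the epithelium of the distal caput epididymis. They were chosen by gene symbol from a list of 31 names, and 30 of the 13128 genes with a symbol in the deposited expression table carried such a name. Nr1h3 was not analysed here. The genes fall into 5 roles. The mevalonate arm holds 7 genes (Acat2, Hmgcs1, Mvk, Pmvk, Mvd, Idi1 and Fdps). The squalene and sterol arm holds 11 (Fdft1, Sqle, Lss, Cyp51, Tm7sf2, Msmo1, Nsdhl, Hsd17b7, Ebp, Sc5d and Dhcr7), which makes 18 synthesis genes in all. The remaining 12 genes belong to SREBP sensing (Insig1, Insig2, Scap, Srebf1 and Srebf2), to uptake, transport and esterification (Stard4, Npc1, Npc2, Soat1 and Mylip) and to the LXR receptors and efflux (Abca1 and Nr1h2).

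Strand-specific mRNA libraries were sequenced from confluent cultures that had been grown on collagen in serum-containing medium. Corticosterone, the main glucocorticoid of rodents, was given at 500 ng/ml in ethanol for 3 days, and control cultures received the ethanol vehicle at 0.1%. The groups were corticosterone at day 3 (end of treatment), at day 6 (3 days after its end) and at day 9 (6 days after its end), vehicle at day 3, day 6 and day 9, and day 0, which carries the vehicle label but was collected before either addition. Each of the 7 groups had 4 libraries, 28 in all. DC2 is an immortalized line without the other cells of the duct, and the labels name no other agent and no altered allele in any group. The labels do not say whether replicates came from separate cultures, so p-values measure only the spread between these libraries, which may be technical.

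Cells build cholesterol from acetyl-CoA through mevalonate, isoprenoid units and squalene, and then through a run of sterol intermediates. When sterol in the endoplasmic reticulum is low, SCAP carries the SREBP transcription factors to the Golgi for cleavage, and the freed factors turn on genes of synthesis and uptake. When sterol is plentiful, INSIG proteins hold SCAP back, while oxysterols bind LXR receptors, which turn on efflux pumps such as ABCA1. In the epididymis, the sterol content of the sperm membrane is remodelled during transit past this epithelium.

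SREBP binds sterol response elements in promoters together with the factors NF-Y, which binds CCAAT boxes, and Sp1, which binds GC boxes. RefSeq promoter windows of GRCm38.p6, from 250 bases before to 50 bases after the annotated start site, were found for 25 of the 30 genes. Fdft1, Sqle, Npc1, Stard4 and Fdps are the genes without such a window. Shown are the promoters of Hmgcs1 at chr13:119690101-119690400 (+ strand), Idi1 at chr13:8885356-8885655 (+ strand), Cyp51 at chr5:4104648-4104947 (- strand), Insig1 at chr5:28071162-28071461 (+ strand) and Abca1 at chr4:53159846-53160145 (- strand). The choice pairs 4 genes that fell together at day 3 and regained most or all of their level by day 6 with Abca1, which stayed low at day 6. Each is written 5′ to 3′ along the strand of its gene, and capitals mark the sterol response element core (TCACNCCAC) and CCAAT boxes on either strand, so that ATTGG is a CCAAT box on the other strand.
Hmgcs1: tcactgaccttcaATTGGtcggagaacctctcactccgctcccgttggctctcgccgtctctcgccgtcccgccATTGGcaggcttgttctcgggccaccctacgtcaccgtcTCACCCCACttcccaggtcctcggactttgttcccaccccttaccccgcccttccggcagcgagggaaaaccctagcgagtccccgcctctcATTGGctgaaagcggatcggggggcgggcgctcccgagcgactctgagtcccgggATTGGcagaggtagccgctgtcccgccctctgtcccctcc
Idi1: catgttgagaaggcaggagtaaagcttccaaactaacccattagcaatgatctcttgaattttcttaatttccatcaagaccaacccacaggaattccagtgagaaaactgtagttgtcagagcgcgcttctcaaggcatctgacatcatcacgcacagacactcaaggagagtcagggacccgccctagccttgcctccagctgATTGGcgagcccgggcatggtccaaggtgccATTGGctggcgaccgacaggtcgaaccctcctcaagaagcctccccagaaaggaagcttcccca
Cyp51: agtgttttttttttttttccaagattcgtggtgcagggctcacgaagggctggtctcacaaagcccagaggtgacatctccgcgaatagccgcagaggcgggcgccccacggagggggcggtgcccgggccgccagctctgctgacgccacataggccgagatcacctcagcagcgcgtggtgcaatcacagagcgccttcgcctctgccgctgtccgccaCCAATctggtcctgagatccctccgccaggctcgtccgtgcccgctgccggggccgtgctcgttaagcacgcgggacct
Insig1: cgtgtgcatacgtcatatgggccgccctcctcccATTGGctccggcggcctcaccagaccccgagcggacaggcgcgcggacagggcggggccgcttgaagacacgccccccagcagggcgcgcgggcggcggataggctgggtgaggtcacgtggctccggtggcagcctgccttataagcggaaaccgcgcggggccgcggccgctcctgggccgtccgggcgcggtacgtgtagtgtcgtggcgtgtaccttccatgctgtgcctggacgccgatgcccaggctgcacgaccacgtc
Abca1: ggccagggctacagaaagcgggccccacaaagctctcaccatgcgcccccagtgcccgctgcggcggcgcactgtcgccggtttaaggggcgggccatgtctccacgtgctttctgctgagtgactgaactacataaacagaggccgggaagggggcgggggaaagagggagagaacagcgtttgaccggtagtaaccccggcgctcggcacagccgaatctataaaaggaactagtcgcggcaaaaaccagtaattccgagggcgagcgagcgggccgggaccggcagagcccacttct

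The core TCACNCCAC stood in the Hmgcs1 promoter, beginning at position -137 from the start site, the single match among the 25 genes, against 1.44% of the 27025 genes with a window. A CCAAT box stood in 14 of 15 synthesis promoters and in 7 of 10 promoters of sensing, uptake and efflux genes, against 41.1% of all genes with a window. A GC box (GGGCGG) stood in 14 of 15 and in 9 of 10, against 38.2% of all genes with a window. A gene was counted if any of its windows matched on either strand. The 27025 genes include many outside the 13128 genes of the expression table, and shares among the latter were not computed. A CCAAT box on the other strand can share its last letters with a GC box, and such matches were counted for both. Of the promoters shown, Hmgcs1 held 4 CCAAT boxes, Idi1 held 2 and Cyp51 and Insig1 held 1 each, while the Abca1 window held none. They were chosen by their expression, so a link between CCAAT boxes and expression was not tested. Acat2, which fell at day 3, was the synthesis gene with a window and no CCAAT box. Mvk, Pmvk, Tm7sf2 and Ebp, whose change at day 3 did not pass the test described below, all held CCAAT boxes. Of these, Mvk and Ebp were called lower when a library that stood apart was left out. No link between boxes and expression was tested for these genes either. A match describes these letters and not a bound site.

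**Figure D1:**
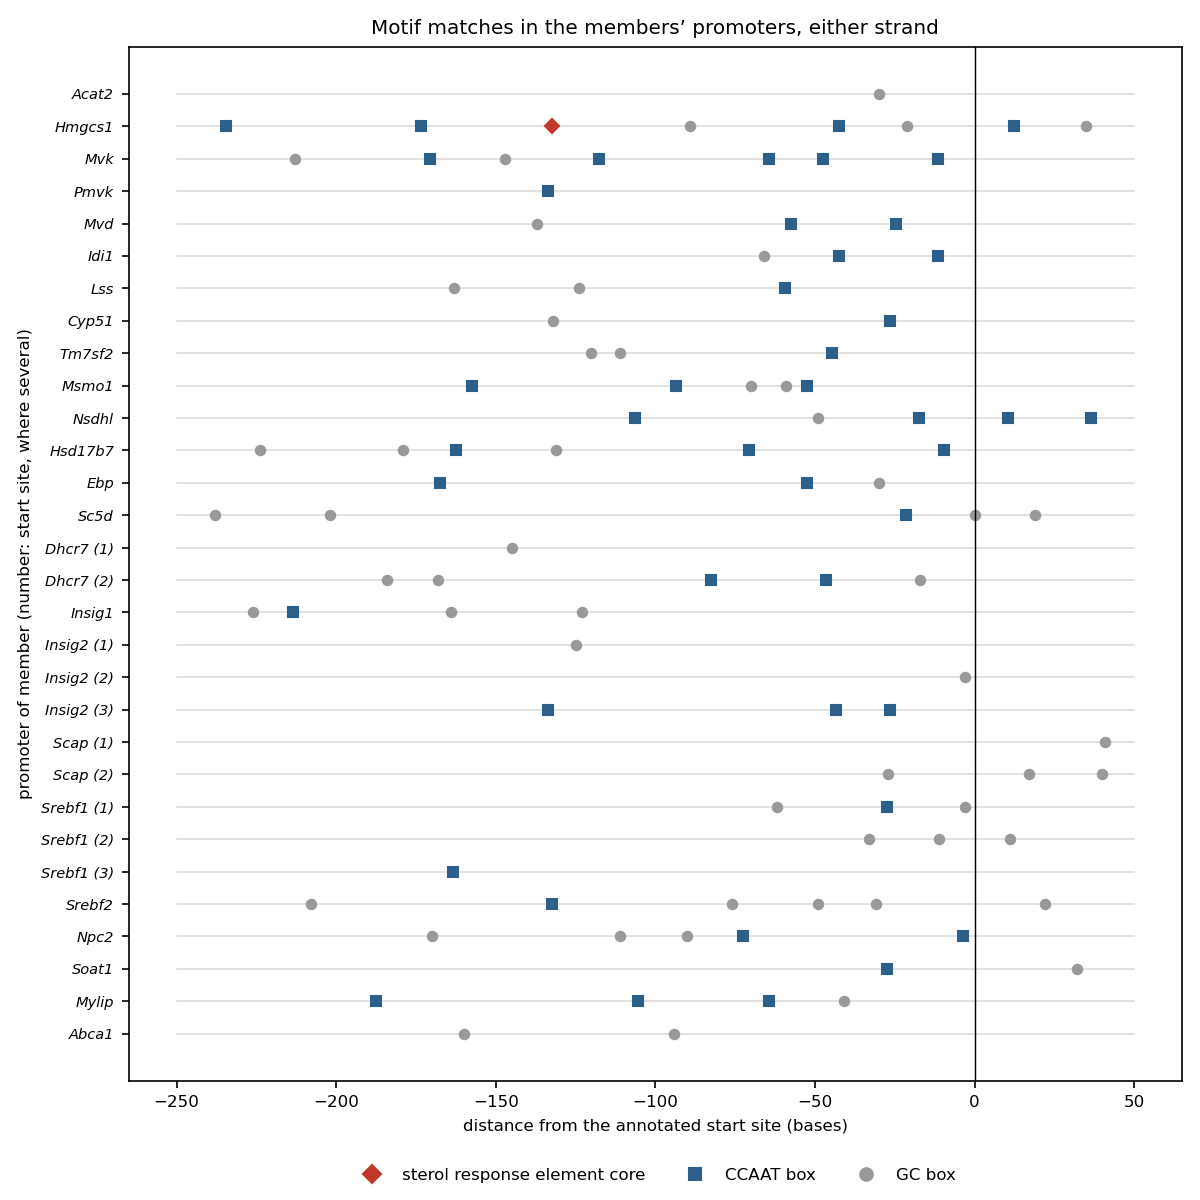
Matches of the sterol response element core (diamond), the CCAAT box (squares) and the GC box (circles) on either strand in the promoter windows of the genes, by distance from the annotated start site in bases. Windows without a match are not drawn, and the number in brackets marks the start site where a gene has several. The core appears in Hmgcs1, and squares appear in 14 of the 15 synthesis genes.

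Values are normalized log2 CPM, the log2 of scaled read counts, as the authors deposited them. CPM summed over all genes with a symbol came to 1049740 to 1059650 in day 0 libraries and to 949069 to 953423 in vehicle day 3 libraries. The scaling was therefore not to library size alone, and its part in summed CPM compared between groups was not tested. Counts were not used here, so the depth per library is unknown. The corticosterone day 3 library with replicate number 4 stood apart. Its deviations from the mean of the rest of its group had a root mean square of 0.520 log2 units over all genes. The same measure was 0.249 to 0.366 in the other libraries. Over the 30 genes its value was 0.408, against 0.0795 to 0.220 in the others, and day 3 results are given below with and without it. All 6 epithelial markers were measured (Krt8, Krt18, Krt19, Cdh1, Epcam and Cldn4), with summed levels of 53.2 to 79.9 CPM per library. Most of that sum was Krt18 and Cldn4. Krt19 and Epcam were low. Krt19 averaged 1.93 log2 CPM at day 0 and from -0.95 to -0.11 in the other groups. Epcam averaged 1.47 log2 CPM with corticosterone at day 9 and from -1.42 to -0.02 in the other groups. They differed with treatment in both directions: Cdh1 and Krt18 were called lower with corticosterone at day 3 (log2 fold changes -1.24 and -0.23) and day 6 (-1.63 and -0.74), and Cdh1 at day 9 (-0.45). Krt8 and Cldn4 were called higher at day 6 (1.12 and 0.55) and day 9 (1.62 and 0.46), and Epcam at day 9 (2.69). None of 10 markers of epididymal principal cells and none of 3 basal cell markers were among the genes analysed. The labelled cell type therefore rests on general epithelial genes here, of which Krt19 and Epcam were low. Values per library are listed below in the order of their replicate numbers, and a gene was called where limma's Benjamini-Hochberg adjusted p over all 13128 genes was under 0.05.

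After 3 days of corticosterone the synthesis pathway was lower nearly from end to end. Of the 18 synthesis genes, 14 fell and the other 4 (Mvk, Pmvk, Tm7sf2 and Ebp) were not called, with a median log2 fold change of -0.83. Across all 13128 genes, 25.6% were called lower and 23.3% higher, with a median of -0.01. All 4 corticosterone libraries lay below all 4 vehicle libraries for 14 synthesis genes, against 19.7% of all genes. The 12 sensing, uptake and efflux genes moved less uniformly: 5 fell (Insig1, Srebf1, Srebf2, Stard4 and Abca1), Soat1 rose and 6 were not called, with a median of -0.08. In bulk RNA, fewer cells that express a gene and less of its RNA per cell cannot be told apart. Without the library that stood apart, 16 synthesis genes were called lower with a median of -0.91. In that fit 6 of the other 12 genes were called lower and 1 higher, with a median of -0.11. Over all 13128 genes the same fit called 3522 lower and 3059 higher, with a median of -0.01.

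**Figure D2:**
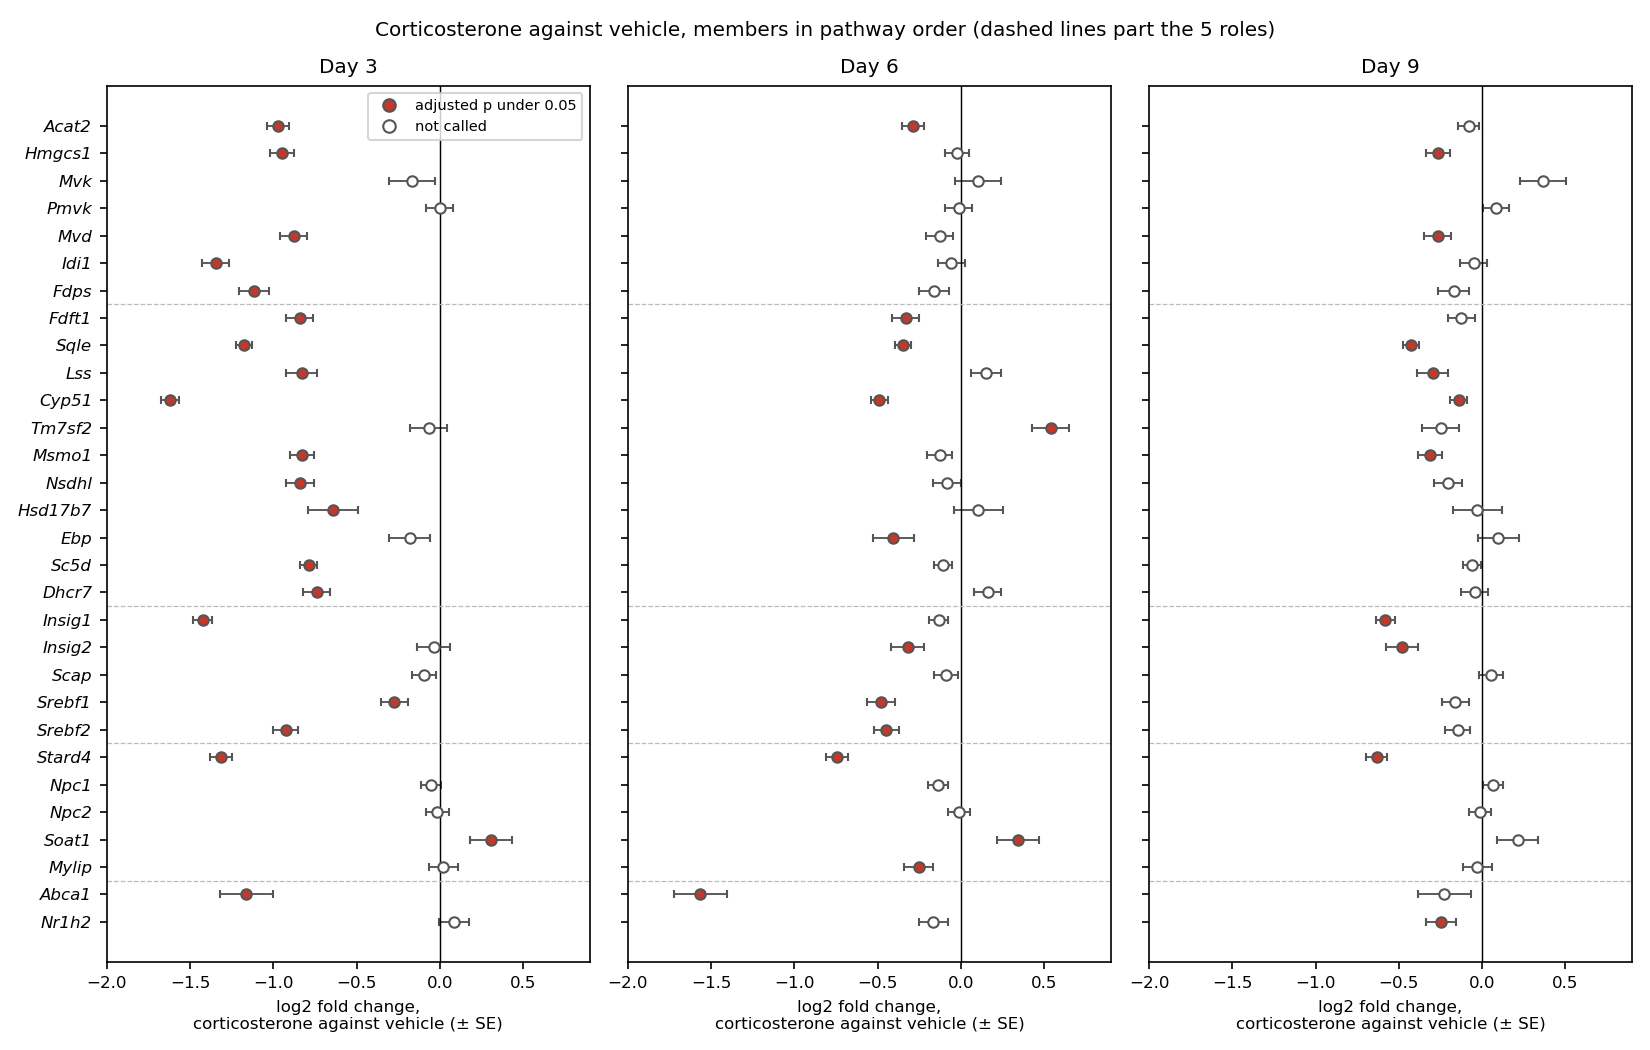
Log2 fold change of corticosterone against vehicle (x axis, ± SE, 4 libraries per group) for the 30 genes in pathway order (y axis) at day 3, day 6 and day 9. Filled points have an adjusted p under 0.05, and dashed lines part the 5 roles. At day 3 filled points run from Acat2 to Dhcr7 with values from -1.62 to -0.64 among the synthesis genes, and at day 6 Abca1 is the lowest point at -1.57.

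Cyp51, the sterol demethylase that acts just after lanosterol is formed, had the largest fall of the 30 genes at day 3. It had 5.87, 5.96, 5.85 and 6.02 log2 CPM in corticosterone libraries, against 7.58, 7.49, 7.56 and 7.56 in vehicle libraries. The groups were far apart, and no corticosterone library came within 1 log2 unit of a vehicle library. The log2 fold change was -1.62 ± 0.05 (SE, n = 4 libraries per group, limma adjusted p = 1.49e-18), a level 3.08-fold lower in corticosterone. Sqle, squalene epoxidase, a rate-controlling step, had 6.14, 6.26, 6.09 and 6.08 log2 CPM with corticosterone, against 7.35, 7.35, 7.35 and 7.24 with vehicle. Again the groups did not overlap, and its log2 fold change was -1.18 ± 0.05 (limma adjusted p = 1.85e-16).

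In the mevalonate arm, Idi1, the isomerase that makes the reactive isoprenoid unit, had 4.37, 4.68, 4.47 and 4.5 log2 CPM with corticosterone, against 5.88, 5.94, 5.86 and 5.73 with vehicle. All treated libraries were lower, and the log2 fold change was -1.35 ± 0.08 (limma adjusted p = 2.54e-13). Acat2, the cytosolic thiolase that opens the pathway, had 3.87, 4.09, 4.06 and 3.85 log2 CPM with corticosterone, against 4.97, 4.95, 4.95 and 4.88 with vehicle. These also did not overlap, and the log2 fold change was -0.97 ± 0.06 (limma adjusted p = 2.08e-12). Hmgcs1, the synthase that makes HMG-CoA and the gene with the sterol response element core shown above, averaged 5.76 ± 0.08 log2 CPM with corticosterone and 6.70 ± 0.07 with vehicle (SD, n = 4 each), a log2 fold change of -0.95 ± 0.07. Mvd, the decarboxylase that makes isopentenyl diphosphate, fell by 0.88 on the log2 scale, and Fdps, which makes farnesyl diphosphate, fell by 1.12. The 2 kinases that act between Hmgcs1 and Mvd were not called. Pmvk, phosphomevalonate kinase, had a log2 fold change of -0.0020 with a 95% interval of -0.17 to 0.16. Mvk, mevalonate kinase, had -0.17 with an interval of -0.45 to 0.12. Mvk had 4.47, 5.34, 4.59 and 4.42 log2 CPM with corticosterone, against 4.79, 4.87, 5.02 and 4.81 with vehicle. Its high value belongs to the library that stood apart, and without that library Mvk was called lower at -0.38.

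In the sterol arm, 7 further enzymes fell by similar amounts. Fdft1, squalene synthase, had a log2 fold change of -0.84, and Lss, which closes squalene oxide into lanosterol, had -0.83. Msmo1 and Nsdhl, which strip methyl groups from the sterol ring, had -0.83 and -0.84. Hsd17b7, the keto reductase of the same demethylation, had -0.64 ± 0.15, the smallest fall among the called synthesis genes and the one with the largest SE. Sc5d, the sterol desaturase, had -0.79 and Dhcr7, the reductase of the last double bond in the ring, -0.74. Ebp, the sterol isomerase, and Tm7sf2, a sterol reductase whose step can also be carried out by the lamin B receptor, were not called at -0.18 and -0.07. Ebp ranged from 4.94 to 5.85 log2 CPM with corticosterone, against 5.38 to 5.65 with vehicle, and was called lower at -0.34 without the library that stood apart.

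Among the sensing genes at day 3, the feedback sensor Insig1 and both SREBP genes were lower, while Insig2 and Scap were not called. Insig1, itself a textbook SREBP target, had 6.48, 6.52, 6.28 and 6.33 log2 CPM with corticosterone, against 7.88, 7.83, 7.83 and 7.78 with vehicle. No libraries overlapped, and the log2 fold change was -1.42 ± 0.06 (limma adjusted p = 1.3e-16). Srebf2, which encodes the SREBP that favours cholesterol genes, had 8.11, 7.93, 7.88 and 8.07 log2 CPM with corticosterone, against 8.88, 8.93, 8.90 and 8.98 with vehicle. The gap between the groups was wide, and the log2 fold change was -0.93 ± 0.08 (limma adjusted p = 1.5e-10). Srebf1, whose products favour fatty acid genes, fell by 0.27. Insig2, the other INSIG, had a log2 fold change of -0.04 with a 95% interval of -0.24 to 0.17. Scap, the escort, had -0.10 with an interval of -0.24 to 0.05, and was called lower at -0.18 without the corticosterone day 3 library with replicate number 6.

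Transport and storage genes diverged at day 3. Stard4, a soluble carrier that moves cholesterol between membranes and a known SREBP target, had 5.01, 4.72, 4.98 and 4.99 log2 CPM with corticosterone, against 6.27, 6.21, 6.18 and 6.3 with vehicle. The groups did not overlap, and the log2 fold change was -1.31 ± 0.06 (limma adjusted p = 6.79e-15). Soat1, which esterifies cholesterol for storage, had 8.52, 7.86, 8.61 and 8.44 log2 CPM with corticosterone, against 8.02, 7.94, 8.08 and 8.16 with vehicle. Its corticosterone libraries were higher except for the one that stood apart, which was the lowest of all 8. Its log2 fold change was 0.31 ± 0.12 (limma adjusted p = 0.0444). That call was lost without any 1 of 6 of the 8 libraries, with values from 0.22 to 0.47 over all 8 omissions, the highest without the library that stood apart. Npc1 and Npc2, which release cholesterol from lysosomes, had log2 fold changes of -0.06 and -0.01, and Mylip, a ubiquitin ligase that removes lipoprotein receptors, had 0.02. Npc2 was called lower at -0.13 without the library that stood apart.

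The efflux pump gene Abca1 had 5.75, 4.75, 5.42 and 5.42 log2 CPM with corticosterone at day 3, against 6.63, 6.57, 6.42 and 6.37 with vehicle. Its libraries did not overlap although the corticosterone values were spread over 1 log2 unit, and the log2 fold change was -1.16 ± 0.16 (limma adjusted p = 1.1e-06). Nr1h2, which encodes LXR beta, had 6.16, 6.36, 5.97 and 6.19 log2 CPM with corticosterone, against 6.08, 6.00, 6.18 and 6.08 with vehicle. Those values overlapped, and the log2 fold change of 0.08 was not called.

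**Figure D3:**
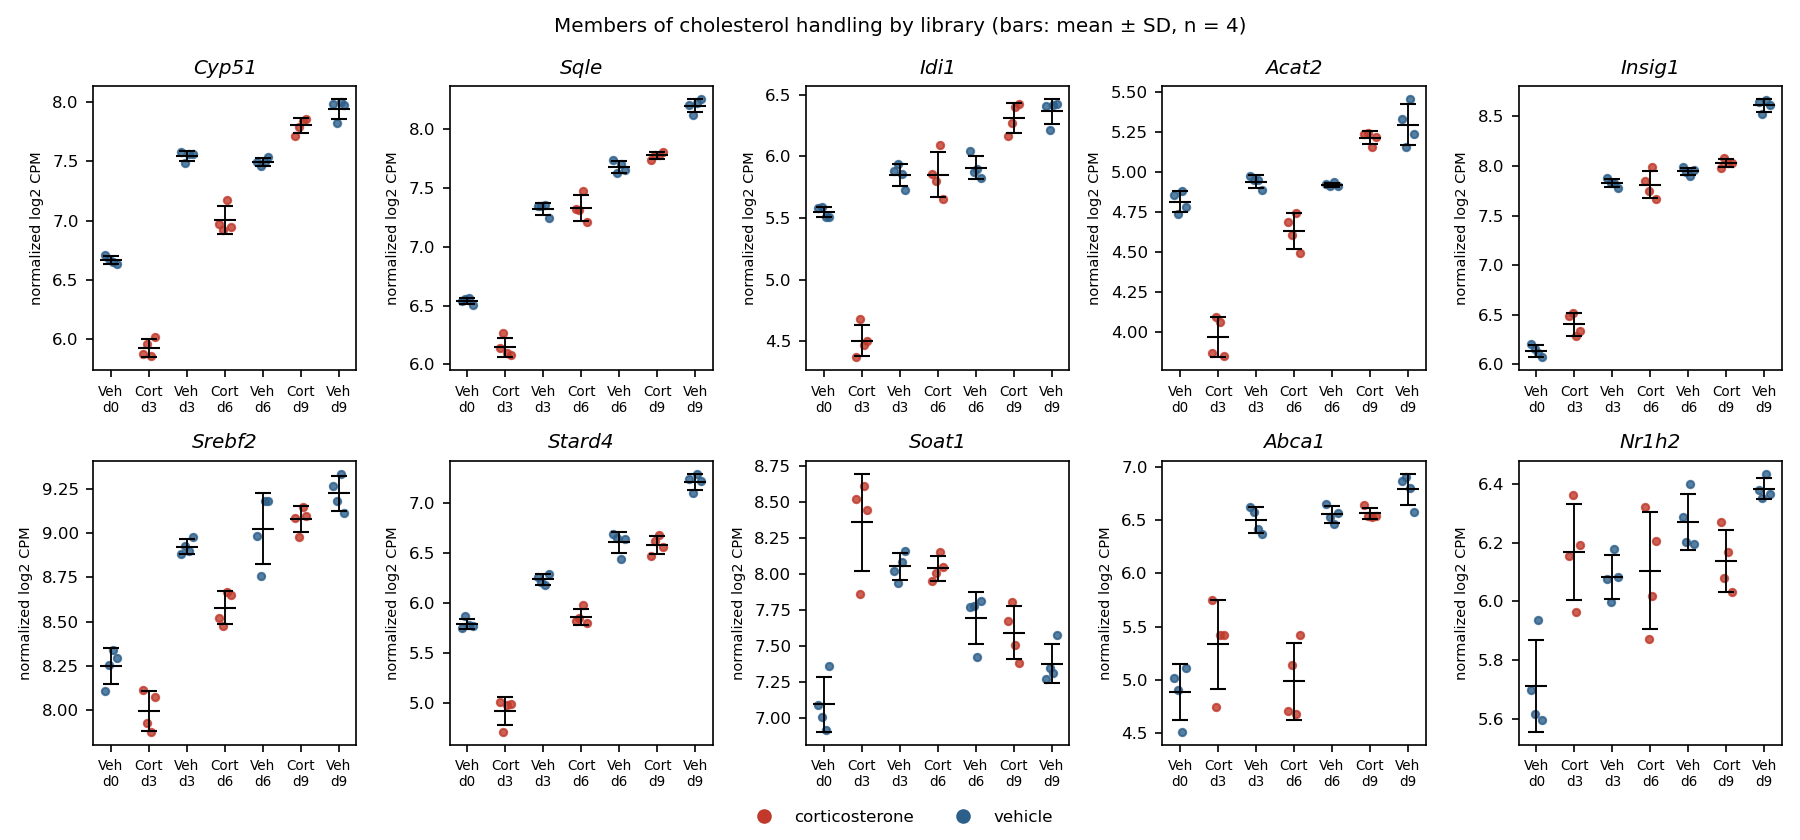
Normalized log2 CPM (y axis) of 10 genes in every library of the 7 groups (x axis, Veh for vehicle, Cort for corticosterone, d for day). Points are libraries and bars the mean ± SD of 4. For Cyp51, Sqle, Idi1, Acat2, Srebf2 and Stard4 the corticosterone day 3 mean is the lowest of the 7 groups, whereas for Abca1 the corticosterone day 6 libraries lie at 4.68 to 5.42, near the day 0 libraries.

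Of 36 other genes with a part in the pathway (acetyl-CoA supply, SREBP cleavage, sterol carriers, isoprenoid branches and electron supply), 6 rose and 14 fell at day 3, with a median log2 fold change of -0.19, where 23.3% of all genes were called higher and 25.6% lower. The 4 with the smallest p were Por, Stard5, Cyb5b and Erlin1. Por, the reductase that feeds electrons to Cyp51 and squalene epoxidase, rose by 1.5 ± 0.07 while those enzymes fell. Stard5, another sterol carrier, rose by 1.07 ± 0.05, opposite to Stard4. Cyb5b, a cytochrome b5, had a log2 fold change of -0.48 ± 0.03, and Erlin1, an endoplasmic reticulum protein that binds sterol and restrains SREBP, had -0.47 ± 0.04. At day 6 Por and Stard5 were still higher, at 0.65 ± 0.07 and 0.96 ± 0.05, and at day 9 they were not called, at 0.09 and 0.02.

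Markers of other cell types moved with the treatment. Of 4 macrophage markers, 2 (Cd68 and Csf1r) were analysed, with summed levels of 7.88 to 11.3 CPM with corticosterone against 28.4 to 29.6 with vehicle at day 3. The sums were 10.3 to 13.8 CPM with corticosterone against 49.1 to 57.6 with vehicle at day 6, and 45.7 to 50.8 CPM with corticosterone against 87.6 to 108 with vehicle at day 9. Most of that sum was Cd68, a lysosomal membrane gene, and Ptprc and Adgre1 were not analysed here. Of 6 fibroblast markers, 4 were analysed (Col1a1, Col1a2, Pdgfra and Pdgfrb), with sums of 31.0 to 34.0 CPM with corticosterone against 47.1 to 51.4 with vehicle at day 3. At day 6 they were 20.9 to 21.6 CPM with corticosterone against 49.8 to 53.2 with vehicle, and at day 9 48.0 to 50.2 CPM with corticosterone against 54.9 to 73.3 with vehicle. Most of that sum was Pdgfrb, and Pdgfra went against it, called higher with corticosterone at day 3 (log2 fold change 1.44) and day 6 (1.19). Pdgfra was low, averaging -0.03 log2 CPM in vehicle at day 3 and -1.09 at day 6. Of 3 endothelial markers, 2 were analysed (Kdr and Pecam1), with sums of 7.15 to 9.71 CPM with corticosterone against 1.43 to 2.60 with vehicle at day 3. At day 6 they were 5.82 to 12.5 CPM with corticosterone against 1.69 to 2.24 with vehicle, and at day 9 1.79 to 2.67 CPM with corticosterone against 0.975 to 2.78 with vehicle. Kdr alone carried the difference, with log2 fold changes of 5.32, 5.54 and 2.26 at days 3, 6 and 9, and Pecam1 was not called on any of these days (0.28, -0.10 and -0.09). In vehicle Kdr averaged -2.72, -2.49 and -3.03 log2 CPM on these days. At such low levels the size of its fold changes depends on the unknown number added before the log. Of 4 smooth muscle markers, Acta2 was analysed, at 2.55 CPM or lower in every library, with 1.12 to 2.13 CPM with corticosterone against 0.449 to 0.5 with vehicle at day 6. At day 3 it had 0.606 to 0.853 CPM with corticosterone against 0.435 to 0.668 with vehicle and was not called, and at day 9 it had 1.12 to 2.55 CPM with corticosterone against 0.347 to 0.631 with vehicle and was called higher (log2 fold change 1.60). The part of these and the epithelial markers in the results for cholesterol genes was not tested.

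At day 6, after 3 days without hormone, most synthesis genes were not called, while several sensing, transport and efflux genes were lower. Of the 18 synthesis genes, 5 fell (Acat2, Fdft1, Sqle, Cyp51 and Ebp), Tm7sf2 rose and 12 were not called, with a median log2 fold change of -0.10. Of the other 12, 6 fell (Insig2, Srebf1, Srebf2, Stard4, Mylip and Abca1), Soat1 rose and 5 were not called, with a median of -0.21. Over all genes 24.3% were called lower and 22.9% higher, so the share of synthesis genes called lower lay near that of all genes, and the 1 called higher was a smaller share. All 4 corticosterone libraries were below all 4 vehicle libraries for 6 synthesis genes and for 5 of the others, against 24.5% of all genes.

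Abca1 was lower at day 6 as well, with 4.71, 5.14, 4.68 and 5.42 log2 CPM in corticosterone libraries, against 6.65, 6.53, 6.46 and 6.57 in vehicle libraries. All treated libraries were more than 1 log2 unit below every vehicle library, and the log2 fold change was -1.57 ± 0.16 (limma adjusted p = 6.74e-09), a level 2.96-fold lower in corticosterone. Stard4 had 5.83, 5.85, 5.98 and 5.80 log2 CPM with corticosterone, against 6.69, 6.65, 6.45 and 6.64 with vehicle, again without overlap (log2 fold change -0.74 ± 0.06, limma adjusted p = 3.19e-10). Srebf2 had 8.52, 8.48, 8.67 and 8.65 log2 CPM with corticosterone, against 8.99, 8.76, 9.18 and 9.18 with vehicle. The lowest vehicle library came close to the treated ones, and the log2 fold change was -0.45 ± 0.08 (limma adjusted p = 2.33e-05). Srebf1 and Insig2 had log2 fold changes of -0.48 and -0.32. Insig1 had 7.85, 7.75, 7.99 and 7.67 log2 CPM with corticosterone, against 7.99, 7.94, 7.90 and 7.96 with vehicle, which overlapped. Its log2 fold change of -0.14 missed the threshold at a limma adjusted p of 0.054.

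Among synthesis genes at day 6, Cyp51 had 6.97, 6.92, 7.17 and 6.95 log2 CPM with corticosterone, against 7.50, 7.46, 7.49 and 7.54 with vehicle (log2 fold change -0.49 ± 0.05, limma adjusted p = 9.64e-09). Sqle had 7.32, 7.31, 7.48 and 7.22 log2 CPM with corticosterone, against 7.74, 7.63, 7.70 and 7.65 with vehicle (log2 fold change -0.35 ± 0.05, limma adjusted p = 9.53e-07). Neither overlapped, whereas Idi1 did, with 5.86, 5.80, 6.1 and 5.66 log2 CPM with corticosterone, against 6.05, 5.88, 5.90 and 5.82 with vehicle, and its log2 fold change was -0.06 with a 95% interval of -0.22 to 0.11. Acat2 had 4.69, 4.60, 4.75 and 4.49 log2 CPM with corticosterone, against 4.93, 4.91, 4.94 and 4.91 with vehicle, a log2 fold change of -0.29 ± 0.06 (limma adjusted p = 0.000539). Tm7sf2 was the single synthesis gene called higher, with 4.06 to 4.28 log2 CPM with corticosterone against 3.33 to 3.89 with vehicle, a log2 fold change of 0.54 ± 0.11 (limma adjusted p = 0.00028). Dhcr7, Lss, Hsd17b7 and Mvk also had positive values (0.16, 0.15, 0.10 and 0.10) and were not called, except Lss with array weights (0.14). Ebp and Fdft1 fell by 0.41 and 0.33.

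Soat1 at day 6 had 7.95, 8.0, 8.15 and 8.05 log2 CPM with corticosterone, against 7.77, 7.77, 7.42 and 7.81 with vehicle, without overlap (log2 fold change 0.34 ± 0.12, limma adjusted p = 0.0254). Nr1h2 had 6.32, 5.87, 6.02 and 6.21 log2 CPM with corticosterone, against 6.29, 6.20, 6.4 and 6.20 with vehicle, with overlap and a log2 fold change of -0.17 that was not called. Mylip had a log2 fold change of -0.25, and Npc1 and Npc2 had -0.14 and -0.01. Same-numbered libraries of the 2 groups deviated together weakly at day 6 (correlations from 0.110 to 0.156), and the main fit did not pair them. With the replicate number as a block Soat1 was no longer called (0.31, limma adjusted p = 0.0637), while Insig1 (-0.15) and Sc5d (-0.14) were called lower. The Soat1 call was also lost without vehicle replicate 5 (0.25) or corticosterone replicate 5 (0.31), and the Mylip call without vehicle replicate 4 (-0.20) or corticosterone replicate 5 (-0.22), while calls as lower were gained for Insig1 without corticosterone replicate 5 (-0.19), for Npc1 without vehicle replicate 5 or corticosterone replicate 3 (-0.17 each) and for Nr1h2 without corticosterone replicate 1 (-0.24).

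The change of the corticosterone effect between days was tested directly as a difference of differences. From day 3 to day 6 the effect moved upward in 15 of 18 synthesis genes, with a median of 0.75, and 3 were not called (Mvk, Pmvk and Ebp). Among the other 12 genes it moved upward in 3 (Insig1, Srebf2 and Stard4) and 9 were not called, with a median of -0.04. Over all genes, 4.21% were called upward and 4.90% downward. Idi1 and Insig1 had the largest differences, at 1.29 ± 0.11 and 1.29 ± 0.08, followed by Cyp51 at 1.13 ± 0.07. For Abca1 the difference was -0.40 ± 0.23 (limma adjusted p = 0.313), with a 95% interval of -0.87 to 0.06. Without the library that stood apart, 16 synthesis genes were called upward. Among the other 12 genes 3 were called upward and 2 downward, Abca1 at -0.60 and Insig2 at -0.39. Over all 13128 genes the same fit called 725 upward and 724 downward. The Hsd17b7 call (0.75) was lost without vehicle day 6 replicate 5 (0.64) or corticosterone day 6 replicate 1 (0.71), with array weights (0.50, limma adjusted p = 0.0629) and in a fit of only the groups compared (limma adjusted p = 0.0702). With array weights the Abca1 difference was called downward at -0.71 (limma adjusted p = 0.00741), as were those of Insig2 (-0.42) and Mylip (-0.37), and that of Mvk was called upward (0.46).

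At day 9, after 6 days without hormone, the differences were largest for Stard4 and Insig1, of which Stard4 was also called at day 6 and Insig1 was not. Hmgcs1, Mvd, Lss, Msmo1 and Nr1h2, called lower at day 9, had not been called at day 6 either. The direct test of day 9 minus day 6, given below, called Insig1 and Lss downward. It did not call Hmgcs1, Mvd, Msmo1 or Nr1h2, so a change between these days was not shown for them. Of the 18 synthesis genes 6 fell (Hmgcs1, Mvd, Sqle, Lss, Cyp51 and Msmo1) and 12 were not called, with a median log2 fold change of -0.13. Of the other 12 genes 4 fell (Insig1, Insig2, Stard4 and Nr1h2) and 8 were not called, with a median of -0.15. Over all genes 14.4% were called lower and 14.1% higher. All corticosterone libraries were below all vehicle libraries for 6 synthesis genes and 4 of the others, against 16.3% of all genes.

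Stard4 at day 9 had 6.47, 6.62, 6.68 and 6.56 log2 CPM with corticosterone, against 7.25, 7.11, 7.30 and 7.22 with vehicle (log2 fold change -0.63 ± 0.06, limma adjusted p = 3.42e-08). Insig1 had 7.98, 8.08, 8.03 and 8.03 log2 CPM with corticosterone, against 8.64, 8.52, 8.67 and 8.61 with vehicle (log2 fold change -0.58 ± 0.06, limma adjusted p = 1.74e-08). Sqle had 7.74, 7.78, 7.78 and 7.81 log2 CPM with corticosterone, against 8.20, 8.13, 8.22 and 8.26 with vehicle (log2 fold change -0.43 ± 0.05, limma adjusted p = 1.8e-07). None of these 3 genes overlapped between the groups. Insig2 fell by 0.48 on the log2 scale, Msmo1 by 0.31, Lss by 0.30 and Hmgcs1 and Mvd by 0.27 each.

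Cyp51 at day 9 had 7.71, 7.79, 7.84 and 7.86 log2 CPM with corticosterone, against 7.98, 7.82, 8.0 and 7.98 with vehicle, with slight overlap (log2 fold change -0.14 ± 0.05, limma adjusted p = 0.0406). Idi1 had 6.16, 6.27, 6.4 and 6.43 log2 CPM with corticosterone, against 6.41, 6.22, 6.42 and 6.42 with vehicle, and Acat2 had 5.24, 5.25, 5.16 and 5.22 with corticosterone, against 5.33, 5.16, 5.46 and 5.24 with vehicle. These 2 genes overlapped and were not called, at -0.05 and -0.08. Abca1 had 6.64, 6.54, 6.53 and 6.54 log2 CPM with corticosterone, against 6.87, 6.91, 6.80 and 6.57 with vehicle. Those overlapped by 1 library of each group, and its log2 fold change of -0.23 was not called (95% interval -0.56 to 0.10), although it was called lower in a fit of only the groups compared (limma adjusted p = 0.0301). Srebf2 had 9.09, 8.98, 9.15 and 9.10 log2 CPM with corticosterone, against 9.27, 9.18, 9.34 and 9.11 with vehicle, and Soat1 had 7.67, 7.80, 7.50 and 7.38 with corticosterone, against 7.27, 7.34, 7.31 and 7.58 with vehicle. Neither was called, at -0.15 and 0.21. Nr1h2 had 6.27, 6.08, 6.17 and 6.03 log2 CPM with corticosterone, against 6.38, 6.35, 6.43 and 6.37 with vehicle, and its log2 fold change was -0.25 ± 0.09 (limma adjusted p = 0.0359). Mvk, the kinase that had not fallen at day 3, stood at 5.25 to 5.49 log2 CPM with corticosterone against 4.93 to 5.07 with vehicle, and its log2 fold change of 0.37 missed the threshold narrowly (limma adjusted p = 0.0507), passing it under 7 of 11 other settings. Omitting single libraries ended the calls of Cyp51 (5 of the 8, values from -0.18 to -0.11 over all 8), Nr1h2 (7 of the 8, -0.29 to -0.21), Mvd (vehicle or corticosterone replicate 5, -0.22 and -0.23) and Lss (vehicle replicate 5, -0.25), and made calls for Mvk (corticosterone replicate 5, 0.41), Nsdhl (vehicle replicate 6, -0.28) and Srebf1 (corticosterone replicate 5, -0.23). The Cyp51 call was also lost with quantile normalization (limma adjusted p = 0.0864) and in a fit of only the groups compared (limma adjusted p = 0.056), and the Nr1h2 call with quantile normalization (limma adjusted p = 0.0575).

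From day 6 to day 9 calls went in both directions. The effect moved upward in 2 synthesis genes (Cyp51 and Ebp) and downward in 2 (Lss and Tm7sf2), and among the other 12 genes it moved upward in 3 (Srebf1, Srebf2 and Abca1) and downward in Insig1, against 16.0% of all genes upward and 14.9% downward. Abca1 had the largest of these, 1.34 ± 0.23 (limma adjusted p = 4.83e-05). Tm7sf2 had -0.79 ± 0.16 and Insig1 -0.45 ± 0.08. The calls for Ebp, Srebf1 and Srebf2 (0.50, 0.32 and 0.30) were lost without any 1 of 5, 6 and 9 of the 16 libraries, with values over all 16 omissions of 0.41 to 0.59, 0.26 to 0.37 and 0.25 to 0.39, and calls were gained for Acat2 without 2 libraries in turn (values from 0.16 to 0.26 over all omissions) and for Hmgcs1 without 3 (-0.30 to -0.17). The Srebf1 call was also lost with median centring (0.31), and the Srebf2 call with array weights (0.23) and in a fit of only the groups compared (limma adjusted p = 0.0503).

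The vehicle cultures themselves changed over the 9 days, and genes of every role rose. At day 3 of vehicle, 13 synthesis genes were higher than at day 0 and Mvk was lower, and 9 of the other 12 genes were higher. All genes gave 36.5% higher and 32.7% lower. At day 6 the counts were 14 higher and 1 lower for synthesis and 12 higher for the others, against 36.4% and 33.7% of all genes. At day 9 they were 16 higher and 1 lower for synthesis and 11 higher for the others, against 35.9% and 34.6%. Median log2 fold changes against day 0 were 0.54, 0.59 and 0.97 for synthesis at days 3, 6 and 9, and 0.62, 0.59 and 0.72 for the other genes.

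Insig1 had the largest rise in vehicle at days 6 and 9, and Tm7sf2 at day 3 (1.76 against 1.69 for Insig1). Insig1 had 7.88, 7.83, 7.83 and 7.78 log2 CPM at day 3 and 8.64, 8.52, 8.67 and 8.61 at day 9. Its day 0 libraries had 6.21, 6.15, 6.11 and 6.07. The Insig1 log2 fold change at day 9 was 2.48 ± 0.06 (limma adjusted p = 4.73e-22), 5.57-fold higher. Abca1 was already higher at day 3 of vehicle (1.61 ± 0.16), against 5.02, 4.91, 4.51 and 5.11 log2 CPM at day 0, and stood at 1.90 ± 0.16 at day 9. Fdps, Tm7sf2 and Sqle had log2 fold changes of 1.72, 1.72 and 1.66 at day 9. Sqle, with 6.54, 6.56, 6.56 and 6.51 log2 CPM at day 0, climbed in steps (0.78, 1.14 and 1.66 at days 3, 6 and 9), as did Stard4 (0.44, 0.81 and 1.42), which had 5.76, 5.87, 5.78 and 5.78 at day 0. Soat1 peaked early, with 0.96 at day 3, 0.60 at day 6 and 0.28 at day 9 over day 0 libraries at 7.09, 7.01, 6.92 and 7.36. Mvk was the exception among synthesis genes, with -0.53, -0.48 and -0.37.

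For the remaining genes listed by library, the day 0 values were 6.71, 6.67, 6.65 and 6.63 log2 CPM for Cyp51, 5.58, 5.59, 5.51 and 5.51 for Idi1, and 4.85, 4.74, 4.88 and 4.78 for Acat2. Srebf2 had 8.11, 8.25, 8.34 and 8.29, and Nr1h2 had 5.70, 5.62, 5.94 and 5.6. Vehicle libraries at day 9 were above all day 0 libraries in each of these 5 genes, with log2 fold changes of 1.28 for Cyp51, 0.82 for Idi1, 0.48 for Acat2, 0.98 for Srebf2 and 0.67 for Nr1h2. Calls of small vehicle changes depended on single libraries: those at day 9 of Soat1 (0.28, values from 0.22 to 0.37 over all omissions), Ebp (0.31, 0.27 to 0.41), Dhcr7 (0.20, 0.14 to 0.23), Npc1 (0.16, 0.14 to 0.23) and Mvk (-0.37, -0.40 to -0.30) were lost without 6, 4, 4, 3 and 2 libraries in turn, those at day 6 of Hsd17b7 (0.42, 0.35 to 0.53), Scap (0.19, 0.14 to 0.24) and Ebp (0.32, 0.30 to 0.34) without 2, 2 and 1, and at day 3 Ebp (0.27), Insig2 (0.22) and Srebf1 (0.18) were called without 1, 2 and 2. With quantile normalization the Mylip log2 fold changes of vehicle days 3, 6 and 9 against day 0 were 0.37, 0.30 and 0.42, in place of 0.65, 0.59 and 0.72, and still called.

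**Figure D4:**
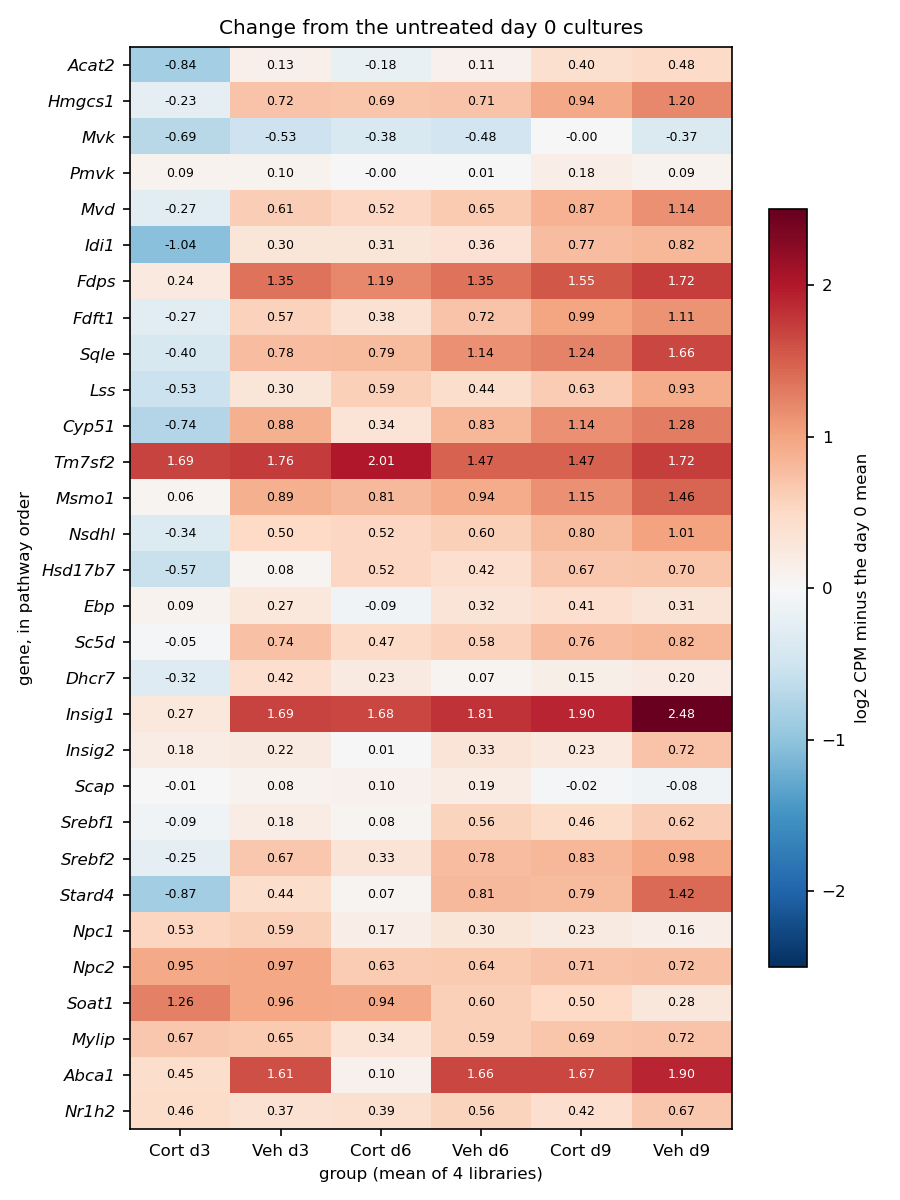
Mean log2 CPM of each gene minus its day 0 mean (colour and number in each cell) in the corticosterone and vehicle groups of days 3, 6 and 9, with genes in pathway order down the page. In the corticosterone day 3 column 13 of the 18 synthesis genes are below 0, against 1 of 18 in the vehicle day 3 column. The share of all genes below 0 was not computed. Abca1 is at 0.10 in the corticosterone day 6 column and at 1.66 in the vehicle day 6 column.

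Set against day 0 as a description with no test, group means with corticosterone at day 3 were below the day 0 means for most synthesis genes. The day 3 mean was below the day 0 mean in 13 of 18 synthesis genes with corticosterone and in 1 of 18 with vehicle. The share of all genes below day 0 was not computed, so these counts have no background. Among the 13 genes the difference ran from -1.04 in Idi1 to -0.05 in Sc5d on the log2 scale. Among the other 12 genes it was below in 4 with corticosterone and in 0 with vehicle. Fdps, Msmo1, Insig1 and Abca1 fell against vehicle but were above day 0 with corticosterone, by 0.24, 0.06, 0.27 and 0.45 on the log2 scale. Summed over the 18 synthesis genes, levels at day 3 were 705 ± 52.1 CPM with corticosterone and 1341 ± 31.4 CPM with vehicle, against 849 ± 16.8 CPM at day 0 (SD, n = 4 libraries each). At day 6 the sums were 1251 ± 83.1 CPM with corticosterone and 1391 ± 31.7 CPM with vehicle, and at day 9 they were 1614 ± 32.4 CPM with corticosterone and 1850 ± 81.2 CPM with vehicle. The sums of all 4 corticosterone libraries at day 6, from 1154 to 1357 CPM, were above those of all day 0 libraries, from 828 to 863 CPM. For the 12 sensing, uptake and efflux genes, the mean difference from day 0 at day 3 was 0.30 ± 0.10 on the log2 scale with corticosterone and 0.70 ± 0.02 with vehicle (SD, n = 4 libraries each). At day 6 it was 0.40 ± 0.02 with corticosterone and 0.74 ± 0.03 with vehicle (SD, n = 4 libraries each).

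**Figure D5:**
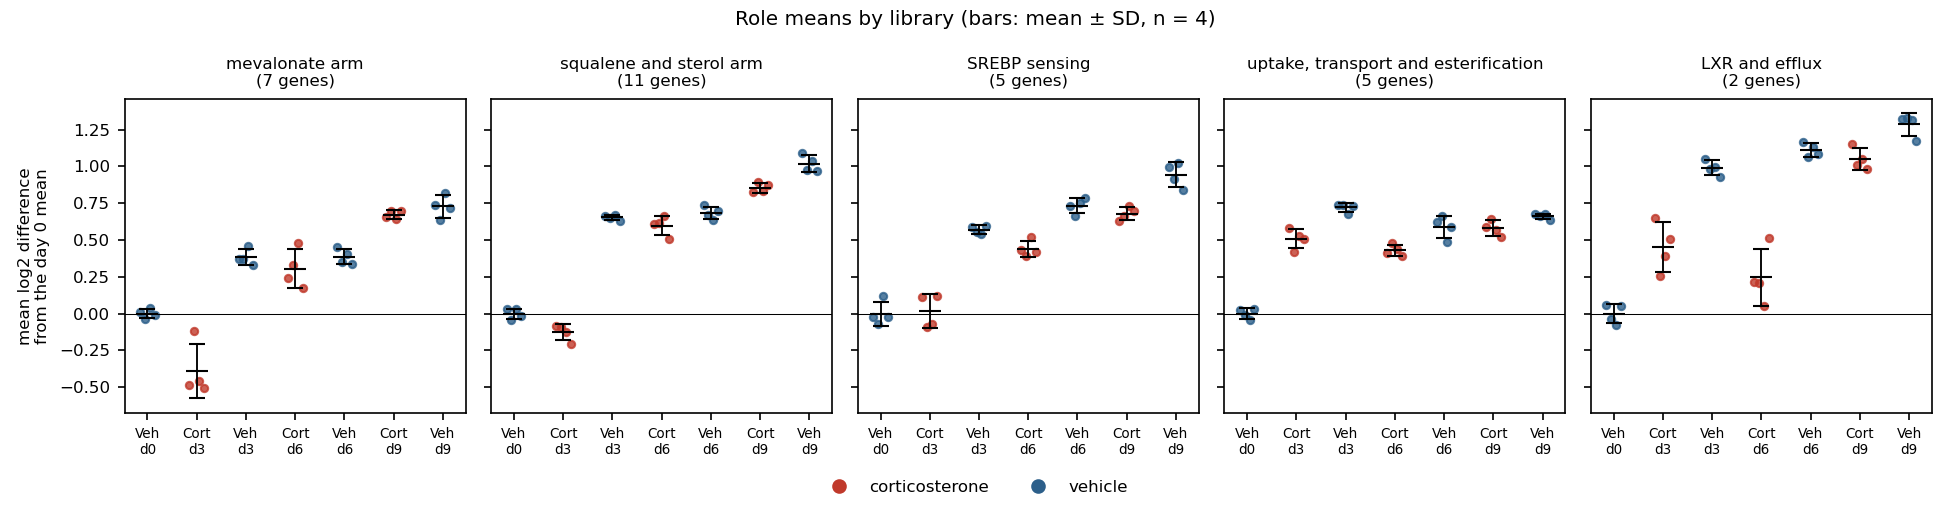
Mean log2 difference from the day 0 mean (y axis) over the genes of each role, by library, in the 7 groups (x axis, Veh for vehicle, Cort for corticosterone, d for day), with bars for the mean ± SD of 4 libraries. In the mevalonate arm the corticosterone day 3 libraries lie below 0 at -0.51 to -0.12, and in the LXR and efflux panel the corticosterone day 6 libraries are at 0.05 to 0.51, below every vehicle library of day 6.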

How the data were processed

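The deposited table holds normalized log2 CPM per gene for all 28 libraries, as made by the authors. The submitters' processing notes name kallisto, edgeR 3.40.1, limma 3.54.0 and the build mm10. The annotation, the normalization and the number added before the log are not given in the sources used here, and fold changes of low genes depend on that number. Library preparation kept the strand, per the labels' protocols. Columns were matched to samples by the labels. An entry without a symbol, with 0.0283 to 0.0715% of CPM, did not enter any test. The smallest root mean square difference between 2 libraries was 0.282 log2 units, so no file was a copy of another.

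A model with a mean for each group was fitted here to the 28 libraries (limma 3.58.1, R 4.3.3, empirical Bayes with intensity trend), leaving 21 residual degrees of freedom. A gene needed a log2 CPM over 0 in 4 or more libraries, and all 13128 passed. P-values were adjusted by Benjamini-Hochberg over all genes of each of 8 contrasts, and the fit was tested on simulated data. The text writes rose or fell of genes with an adjusted p under 0.05, and fold changes are log2 values ± SE. The members and lists were chosen with earlier results of these data known. Values per library are given for the 4 synthesis genes and the 2 genes of each other role with the smallest p at day 3, and at most 4 other pathway genes are named by the same p. The contrasts of corticosterone against vehicle share their vehicle libraries with the contrasts against day 0.

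Alternatives changed the filter (log2 CPM over 2, which kept 11460 genes, or none), the scale (median centring, quantile normalization or log2(CPM + 1)), the fit (without the intensity trend, with robust moderation, with array weights, or with just the groups of the contrast), the threshold (0.01), or added the replicate number as a block, and each library was left out in turn. Replicate numbers come from the labels. Deviations of same-numbered libraries correlated at 0.156, 0.126 and 0.110 at day 6, over 0.1 in every pair. The correlations were -0.03 to 0.07 at day 3 and 0.03 to 0.17 at day 9. All were weak, and the highest, 0.167, was at day 9, so they do not settle whether the numbers pair the samples. The main fit had no block at any day, and calls that changed with the block are given.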

Additional observations from a re-analysis of the deposited data

Results flagged for a closer look

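Among 210 sets of 4 libraries (30 genes in 7 groups), 19 held a library whose gap to the nearest of the others, divided by the range of the set, was above Dixon's 95% critical value, and chance gives about 5% of sets. Values are log2 CPM, with the range of the other 3 libraries in brackets. The corticosterone day 3 replicate 4 library, which stood apart over all genes, had 4 of the 19: Pmvk at 4.76 (others 4.34 to 4.37), Fdps at 7.02 (others 6.35 to 6.4), Sc5d at 5.43 (others 5.67 to 5.70) and Stard4 at 4.72 (others 4.98 to 5.01). Fdps and Pmvk were high in it and Sc5d and Stard4 low. Lss stood at 6.87 (others 7.09 to 7.12) and Nsdhl stood at 4.41 (others 4.58 to 4.61) in the corticosterone day 6 replicate 6 library. Abca1 stood at 6.64 (others 6.53 to 6.54) in the corticosterone day 9 replicate 3 library. Ebp stood at 5.42 (others 5.74 to 5.79) in the corticosterone day 9 replicate 5 library. Idi1 stood at 6.22 (others 6.41 to 6.42), Cyp51 stood at 7.82 (others 7.98 to 8.0) and Msmo1 stood at 7.42 (others 7.57 to 7.59) in the vehicle day 9 replicate 4 library. Mvk stood at 4.93 (others 5.05 to 5.07) and Hsd17b7 stood at 5.66 (others 5.26 to 5.32) in the vehicle day 9 replicate 3 library. Pmvk stood at 4.45 (others 4.32 to 4.34) in the vehicle day 0 replicate 5 library. Hsd17b7 stood at 4.66 (others 4.80 to 4.82) in the vehicle day 3 replicate 5 library. Sqle stood at 7.24 (others 7.35 to 7.35) in the vehicle day 3 replicate 6 library. Soat1 stood at 7.42 (others 7.77 to 7.81) in the vehicle day 6 replicate 5 library. Srebf1 stood at 7.52 (others 7.37 to 7.38) in the vehicle day 6 replicate 6 library. Npc1 stood at 6.82 (others 7.05 to 7.09) in the vehicle day 9 replicate 6 library.

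The corticosterone effect differed between days in 26 tests of the difference itself. The log2 fold change at day 6 minus that at day 3 passed the threshold in 18 genes: Acat2 (0.68), Hmgcs1 (0.92), Mvd (0.75), Idi1 (1.29), Fdps (0.96), Fdft1 (0.51), Sqle (0.83), Lss (0.98), Cyp51 (1.13), Tm7sf2 (0.61), Msmo1 (0.70), Nsdhl (0.76), Hsd17b7 (0.75), Sc5d (0.68), Dhcr7 (0.90), Insig1 (1.29), Srebf2 (0.48) and Stard4 (0.57). All of these were upward. The log2 fold change at day 9 minus that at day 6 passed it in 8: Lss (-0.45), Cyp51 (0.35), Tm7sf2 (-0.79), Ebp (0.50), Insig1 (-0.45), Srebf1 (0.32), Srebf2 (0.30) and Abca1 (1.34). Those went in both directions, with Abca1 the largest upward and Tm7sf2 the largest downward.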

How the results depend on the processing

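Across the 30 genes and 8 contrasts, 2528 of 2640 values under the 11 settings other than leaving out a library kept direction and side of the threshold, and 2232 of 2400 did when 1 library was left out. No called value changed sign in either. Called genes among the 30 with 1 library left out ranged over 19 to 23 at day 3, 12 to 14 at day 6, 6 to 10 at day 9, 17 to 21 for day 6 minus day 3, 5 to 9 for day 9 minus day 6, and 23 to 25, 25 to 27 and 24 to 28 for vehicle at days 3, 6 and 9. By role, leaving out a library gave 14 to 16, 5 to 5 and 3 to 6 lower synthesis genes at days 3, 6 and 9, 0 to 1 higher synthesis genes at day 9, 5 to 6, 5 to 7 and 3 to 4 lower genes among the other 12, and 0 to 1 higher ones at days 3 and 6. Shares of all genes are not given beside these ranges, which describe how stable the calls were and not a result about the 30 genes. The Soat1 rise at day 3 was lost, leaving 0 higher genes among the other 12, with quantile normalization, no intensity trend, the replicate block, adjusted p under 0.01 and only the groups compared, and at day 6 with the block and adjusted p under 0.01 (0 each). At day 6 array weights gave 2 higher synthesis genes. At day 9 array weights gave 16 called genes, with 1 higher among the other 12, and adjusted p under 0.01 gave 6, with 3 lower synthesis genes, while 1 synthesis gene (Mvk) was higher with the stricter filter, median centring, quantile normalization, log2(CPM + 1), array weights, the replicate block (0.37) and only the groups compared. Adjusted p under 0.01 left 4 called for day 9 minus day 6. Hsd17b7 at day 3 was -0.42 with array weights. The causes were not tested. The replicate block changed no other call of corticosterone against vehicle than Soat1 at days 3 and 6, Insig1 and Sc5d at day 6, and Mvk and Nsdhl (-0.21) at day 9, and in vehicle those of Ebp, Insig2 and Srebf1 at day 3 and Soat1 at day 9. 

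Uncalled values near 0 changed sign under some settings. With array weights these were Insig2 at day 3 (0.088), Npc2 at day 6 (0.0043), Pmvk at vehicle day 6 against day 0 (-0.0020), Pmvk at day 6 minus day 3 (0.075), Soat1 at day 6 minus day 3 (-0.17) and Soat1 at day 9 minus day 6 (0.00029). With median centring these were Pmvk at day 3 (0.010), Pmvk at day 6 (0.00017), Npc2 at day 6 (0.0026) and Idi1 at day 9 minus day 6 (-0.0054). With quantile normalization these were Pmvk at day 3 (0.0091), Pmvk at day 6 (0.012), Pmvk at vehicle day 6 against day 0 (-0.046), Pmvk at day 6 minus day 3 (0.0027), Scap at day 6 minus day 3 (-0.0063), Fdps at day 9 minus day 6 (0.046) and Npc2 at day 9 minus day 6 (0.032). With the replicate block these were Pmvk at day 3 (0.045), Npc2 at day 3 (0.0012), Pmvk at day 6 (0.033), Hsd17b7 at day 6 (-0.0074), Npc2 at day 6 (0.018), Scap at day 6 minus day 3 (-0.0030) and Idi1 at day 9 minus day 6 (-0.017). With 1 library left out, uncalled values that changed sign ranged as follows. For day 3 they were Pmvk -0.10 to 0.037, Tm7sf2 -0.13 to 0.024, Insig2 -0.10 to 0.075, Npc2 -0.13 to 0.055 and Mylip -0.038 to 0.076. For day 6 they were Hmgcs1 -0.099 to 0.022, Mvk -0.010 to 0.19, Pmvk -0.055 to 0.042, Idi1 -0.14 to 0.0070, Hsd17b7 -0.0039 to 0.18 and Npc2 -0.024 to 0.0030. For day 9 they were Hsd17b7 -0.12 to 0.062, Ebp -0.00019 to 0.18, Dhcr7 -0.12 to 0.013, Npc1 -0.0014 to 0.090, Npc2 -0.047 to 0.0038 and Mylip -0.056 to 0.0062. For vehicle day 6 against day 0 they were Pmvk -0.019 to 0.044. For day 6 minus day 3 they were Pmvk -0.053 to 0.091, Scap -0.042 to 0.091, Npc2 -0.066 to 0.11 and Soat1 -0.13 to 0.12. For day 9 minus day 6 they were Idi1 -0.058 to 0.088, Fdps -0.046 to 0.020 and Npc2 -0.036 to 0.015. 

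Depth per library is unknown, and no limit from counting is given. A call for 4 against 4 libraries of an immortalized line speaks of these libraries.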
